A study of Mus musculus with 8 samples.

Results

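De novo lipogenesis builds fatty acids from surplus carbohydrate, and 10 of its enzymes and regulators were examined in mouse livers after ischemia and reperfusion (I/R). The genes were Srebf1, Mlxipl, Thrsp, Acly, Acaca, Acacb, Fasn, Me1, Elovl6 and Scd1, found by their symbols among the 54532 genes of the deposited FPKM table (fragments per kilobase of gene, scaled to library size, a level per length). All 10 were listed. All 10 also passed the minimum mean of 0.1 FPKM that left 16645 genes for the test.

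Livers of 4 METTL3-HKD mice were compared with livers of 4 METTL3-Flox mice. METTL3 is the enzyme that methylates adenosines in messenger RNA. METTL3-HKD mice carried METTL3 flox/- with Alb-iCre, so the recombinase was driven by the hepatocyte promoter of albumin and the model is a knockdown in heterozygous animals. METTL3-Flox mice, littermates, carried METTL3 flox/flox. The floxed line had been bred with C57BL/6, and the age of the sequenced mice is not given in the labels. Both groups had 1 h of ischemia of part of the liver and 6 h of reperfusion, and no sham-operated library was analysed here, so no value below describes the effect of I/R itself.

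In hepatocytes, citrate that leaves the mitochondria is cleaved to acetyl-CoA, which is carboxylated to malonyl-CoA and condensed to palmitate with NADPH as the reductant. Palmitate is then elongated and desaturated before it enters triglycerides. Insulin drives the pathway through SREBP-1c, a product of Srebf1, and glucose drives it through ChREBP, the product of Mlxipl. Both factors bind the promoters of lipogenic genes.

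Mlxipl was lower in METTL3-HKD livers, at 0.489 times the METTL3-Flox level, and was the only one of the 10 genes to pass the threshold of an adjusted p under 0.05. No member passed in the other direction. The promoters of Mlxipl and Fasn are therefore shown first, as the gene that passed and as the central enzyme of the pathway that did not. RefSeq gives Mlxipl 2 starts on the plus strand of chromosome 5 that lie 17001 bases apart, and the FPKM of the whole gene cannot separate transcripts from the 2 starts. The 250 bases before each start are given 5′ to 3′ in GRCm38.p6 coordinates, with capitals for matches on either strand to the E-box CACGTG, the SRE-like element TCACNCCAC, the CCAAT box CCAAT and the GC box GGGCGG.
Mlxipl, upstream start, chr5:135089640-135089889, plus strand: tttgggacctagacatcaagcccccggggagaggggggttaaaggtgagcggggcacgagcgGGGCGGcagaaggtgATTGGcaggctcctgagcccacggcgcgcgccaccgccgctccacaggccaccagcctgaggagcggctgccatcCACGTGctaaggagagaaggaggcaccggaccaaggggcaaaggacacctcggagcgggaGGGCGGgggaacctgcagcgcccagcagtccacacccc
Mlxipl, inner start, chr5:135106641-135106890, plus strand: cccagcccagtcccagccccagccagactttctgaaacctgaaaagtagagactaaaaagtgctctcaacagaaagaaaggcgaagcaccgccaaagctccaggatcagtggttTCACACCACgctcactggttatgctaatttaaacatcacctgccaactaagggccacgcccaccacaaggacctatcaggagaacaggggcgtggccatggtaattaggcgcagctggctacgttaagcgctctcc
Fasn, chr11:120824548-120824797, minus strand: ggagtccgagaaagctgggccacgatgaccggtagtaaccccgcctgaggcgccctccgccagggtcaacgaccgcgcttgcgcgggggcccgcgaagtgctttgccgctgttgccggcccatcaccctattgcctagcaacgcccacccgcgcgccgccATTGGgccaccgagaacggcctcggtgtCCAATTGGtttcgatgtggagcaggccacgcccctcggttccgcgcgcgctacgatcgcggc

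In these windows the upstream start of Mlxipl had an E-box 98 bases before the start, a CCAAT box at 173 bases and GC boxes at 188 and 38 bases. The inner start had an SRE-like element at 136 bases. Fasn had CCAAT boxes at 90, 62 and 59 bases, of which the last 2 overlap on opposite strands. RefSeq promoters were matched for 9 of the 10 members and came to 13 windows in all. The E-box was in 1 of the 13 windows and in 6.02% of 32851 promoters of the same length, and the SRE-like element was in 1 of the 13 and in 1.05% of all. CCAAT boxes were in 7 of the 13 windows against 33.8% of all, and GC boxes in 5 of the 13 against 32.7%. The windows are not separate genes, as Srebf1 gave 3 and Me1 and Mlxipl gave 2 each. Some overlap gene bodies: the Thrsp window has 180 of its 250 bases in exons, and the Acaca window lies inside the gene. A match describes letters in a window and is not a measured binding site.

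Depth and cell makeup are given first, as both can bear on the values that follow. Reads on genes, rebuilt from FPKM and gene length, came to 15961479 to 18434488 per METTL3-HKD liver and 15861245 to 17262991 per METTL3-Flox liver, and every member had at least 303 reads in every liver. Values per liver are given in the order of the liver numbers. Mettl3 itself was at 1.56, 1.39, 1.17 and 1.20 FPKM in METTL3-HKD and at 1.84, 1.16, 1.45 and 1.54 FPKM in METTL3-Flox, a log2 fold change of −0.16 (adjusted p = 0.556), so the whole-gene level did not separate the genotypes. The floxed part is exon 4, and a whole-gene value of bulk liver separates neither that exon nor the RNA of hepatocytes. It is therefore no test of the knockdown, and the paper reports its own check of the ablation in liver. The 11 hepatocyte markers used, led by Alb, summed to 22831 to 33517 FPKM in METTL3-HKD livers and 29690 to 33770 FPKM in METTL3-Flox livers, with 1 of the 11 (Hnf4a) lower. The library size behind the FPKM was 1.01 to 1.17 times the reads on genes in METTL3-HKD and 0.840 to 1.01 times in METTL3-Flox. How the hepatocyte sums of the groups compare depends on that scaling, and the sums were not rescaled to reads on genes. Neutrophil markers, led by S100a9, summed to 334 to 1631 FPKM against 14.3 to 47.0 FPKM, and 8 of the 9 tested were higher in METTL3-HKD. Elane was tested and not called, and Mpo, below 0.1 FPKM in every liver, was not tested. Cholangiocyte markers, led by Spp1, summed to 119 to 369 FPKM against 52.5 to 77.6 FPKM, with 4 of 5 tested higher. Kupffer cell and monocyte markers, led by Cd5l, summed to 71.8 to 162 FPKM against 156 to 366 FPKM, with 4 of 9 lower and 1 higher. The hepatocyte sums and the Kupffer cell and monocyte sums overlapped between the groups, and endothelial and stellate sums overlapped too. Endothelial markers, led by Clec4g, summed to 65.6 to 75.6 FPKM against 70.1 to 80.5 FPKM, with 2 of 8 lower. Stellate markers, led by Dcn, summed to 34.8 to 47.7 FPKM against 31.3 to 47.2 FPKM, with 1 of 7 lower and 1 higher. Adipocyte markers, which matter here because fat tissue shares the pathway, summed to 4.47 to 13.7 FPKM against 5.62 to 13.0 FPKM, were led by Fabp4 and had 0 of 4 tested called, and Lep and Slc7a10 were below 0.1 FPKM in every liver.

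Of the regulators, Mlxipl (ENSMUSG00000005373, chromosome 5, 135089890 to 135138382, plus strand, GRCm38) encodes the carbohydrate response factor ChREBP. The METTL3-HKD livers had 4.69, 6.96, 6.68 and 6.40 FPKM, and the METTL3-Flox livers had 8.42, 14.1, 16.4 and 13.0 FPKM. Every METTL3-HKD liver lay below every METTL3-Flox liver, and the closest pair was METTL3-HKD liver 2 and METTL3-Flox liver 1. The means were 6.18 ± 1.02 and 13.0 ± 3.34 FPKM (SD, n = 4 each). On log2(FPKM + 0.1), Mlxipl fell by 1.03 (SE 0.208, 95% interval −1.50 to −0.56, limma adjusted p = 0.0151), and the exact two-sided permutation p of the mean FPKM was 0.0286, the smallest that 70 arrangements of 4 against 4 livers allow. The call held under all 16 alternatives, with log2 fold changes of −1.23 to −0.82 and adjusted p of 0.00535 to 0.0444. Without METTL3-HKD liver 1, which had the lowest level and the highest neutrophil marker sum, the log2 fold change was −0.91 (adjusted p = 0.0382). In bulk tissue, fewer hepatocytes and less Mlxipl RNA per hepatocyte cannot be told apart. Exons of Mlxipl share 235 bases, 4.24% of their length, with Gm43500 on the opposite strand, which averaged 0.394 FPKM.

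The background sets how this count reads. Of the 16645 genes tested, 6.63% were called lower and 9.05% higher at an adjusted p under 0.05, so 1 of 10 members called lower is near the background share. With a further limit of a log2 fold change of −1 or below, which Mlxipl also passed, 1.52% of all genes were called. Mlxipl was also the only member whose groups did not overlap, against 9.95% of all genes not overlapping and lower, and 12.7% not overlapping and higher. At an unadjusted p under 0.05, 3 members (Mlxipl, Acaca and Acly) were lower and 0 were higher, against 15.1% of all genes lower. The log2 fold change was negative for 8 members and positive for 2 (Thrsp and Acacb), with a median of −0.43 beside −0.00 over all genes tested. When libraries were scaled to their reads on genes instead, the median of all genes rose to 0.20, the split of all calls went from 1104 lower and 1506 higher to 374 lower and 2310 higher, and Elovl6 and Me1 turned positive, at 0.16 and 0.19, which left 6 members negative. Mlxipl stayed called at −0.82 (adjusted p = 0.0434).

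**Figure D1:**
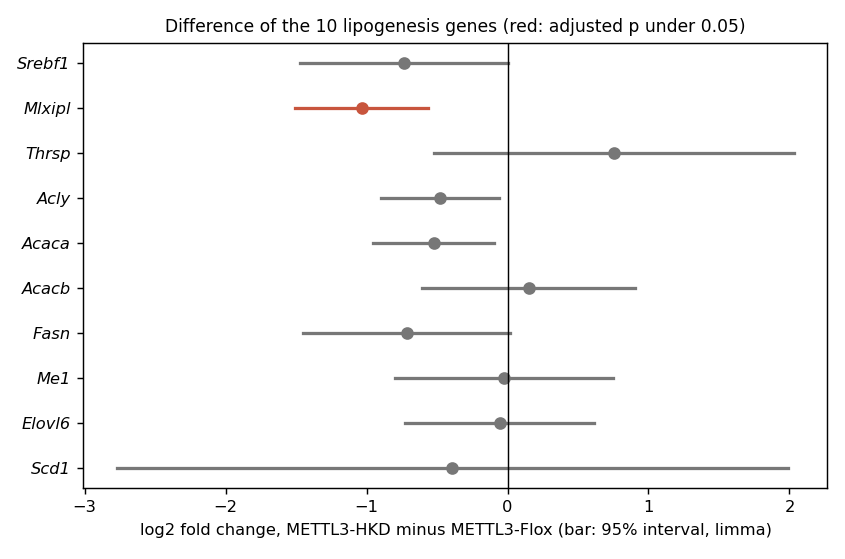
Log2 fold change of METTL3-HKD minus METTL3-Flox on log2(FPKM + 0.1) for each of the 10 genes, with the 95% interval from limma as a bar and the gene with an adjusted p under 0.05 in red. The interval of Mlxipl runs from −1.50 to −0.56, those of Acly and Acaca also lie below 0 without passing the adjusted threshold, and that of Scd1 runs from −2.77 to 1.99.

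Srebf1 (ENSMUSG00000020538, chromosome 11, 60199089 to 60222581, minus strand) encodes SREBP-1a and the insulin-responsive SREBP-1c, activators of fatty acid synthesis. It was at 6.09, 7.18, 14.1 and 14.7 FPKM in METTL3-HKD livers and at 12.7, 19.6, 22.8 and 12.4 FPKM in METTL3-Flox livers. METTL3-HKD livers 1 and 2 were below every METTL3-Flox liver, and livers 3 and 4 fell within the METTL3-Flox range. The means of 10.5 ± 4.52 and 16.9 ± 5.17 FPKM (SD, n = 4 each) gave a log2 fold change of −0.73 (SE 0.327, 95% interval −1.47 to 0.01) that did not pass the test (adjusted p = 0.160, exact permutation p = 0.171). RefSeq gives 3 starts for Srebf1, and the gene-level value does not separate the SREBP-1a and SREBP-1c transcripts. Its exons share 109 bases (1.93%) with Rai1 on the opposite strand, at 1.92 FPKM.

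Thrsp (ENSMUSG00000035686, chromosome 7, 97412938 to 97417730, minus strand) encodes Spot 14, a small thyroid hormone-responsive protein of lipogenic tissues. Its values were 14.0, 22.6, 30.8 and 66.3 FPKM in METTL3-HKD livers and 10.3, 46.5, 15.1 and 11.0 FPKM in METTL3-Flox livers. One liver of each group stood high, METTL3-HKD liver 4 and METTL3-Flox liver 2, and the groups overlapped. The means were 33.4 ± 23.0 and 20.7 ± 17.3 FPKM (SD, n = 4 each), with a log2 fold change of 0.75 (SE 0.564, 95% interval −0.52 to 2.03, adjusted p = 0.394, exact permutation p = 0.486). The value moved between 0.35 and 1.24 when single livers were left out.

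Acly (ENSMUSG00000020917, chromosome 11, 100476353 to 100528000, minus strand) encodes ATP citrate lyase, which makes cytosolic acetyl-CoA. It was at 24.6, 19.5, 27.7 and 34.5 FPKM in METTL3-HKD livers and at 28.8, 42.7, 40.4 and 34.9 FPKM in METTL3-Flox livers. The groups overlapped only through METTL3-HKD liver 4, which exceeded METTL3-Flox liver 1. The means were 26.6 ± 6.26 and 36.7 ± 6.23 FPKM (SD, n = 4 each) and the log2 fold change was −0.48 (SE 0.186, 95% interval −0.90 to −0.06), which did not pass after adjustment (adjusted p = 0.113, exact permutation p = 0.0571).

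Acaca (ENSMUSG00000020532, chromosome 11, 84129672 to 84401651, plus strand) encodes the cytosolic acetyl-CoA carboxylase whose malonyl-CoA is the substrate of fatty acid synthase. It was at 2.04, 1.98, 2.53 and 2.76 FPKM in METTL3-HKD livers and at 2.40, 4.05, 4.05 and 3.24 FPKM in METTL3-Flox livers. METTL3-Flox liver 1 lay among the METTL3-HKD livers, and the other METTL3-Flox livers lay above all of them. The means were 2.33 ± 0.380 and 3.43 ± 0.786 FPKM (SD, n = 4 each), with a log2 fold change of −0.52 (SE 0.189, 95% interval −0.95 to −0.10, adjusted p = 0.0902, exact permutation p = 0.0857). Without METTL3-Flox liver 1 it was −0.68 and passed (adjusted p = 0.0285).

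Acacb (ENSMUSG00000042010, chromosome 5, 114146535 to 114250761, plus strand) encodes the carboxylase at the mitochondrial surface, whose malonyl-CoA restrains fatty acid import by CPT1. Its values were 4.55, 5.36, 6.05 and 5.36 FPKM in METTL3-HKD livers and 2.21, 8.26, 4.98 and 5.65 FPKM in METTL3-Flox livers. The METTL3-HKD livers sat close together inside the METTL3-Flox range, between METTL3-Flox liver 1 and liver 2. The means were 5.33 ± 0.616 and 5.28 ± 2.49 FPKM (SD, n = 4 each), and the log2 fold change of 0.15 (SE 0.334, 95% interval −0.61 to 0.90, adjusted p = 0.797, exact permutation p = 0.971) turned to −0.21 without METTL3-Flox liver 1.

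The ratio of Acaca to Acacb within a liver does not depend on scaling between libraries. It was 0.450, 0.369, 0.418 and 0.515 in METTL3-HKD livers and 1.09, 0.490, 0.813 and 0.573 in METTL3-Flox livers. METTL3-HKD liver 4 exceeded METTL3-Flox liver 2, so the groups overlapped, and METTL3-Flox liver 1 was the only one in which Acaca was above Acacb. The mean log2 ratio was −1.20 ± 0.202 and −0.50 ± 0.515 (SD, n = 4 each), a difference of −0.70 (SE 0.277, exact two-sided permutation p = 0.0571) that did not pass the threshold. Without METTL3-Flox liver 2 the difference was −0.87 and the exact permutation p was 0.0286.

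**Figure D2:**
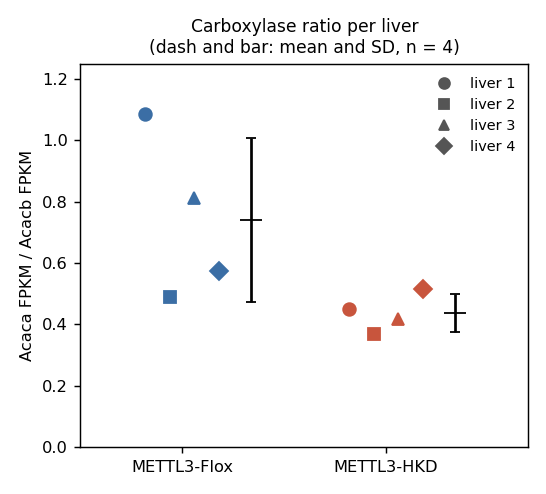
FPKM of Acaca divided by FPKM of Acacb in each liver, with a symbol per liver number and the mean and SD of 4 livers as dash and bar. METTL3-HKD livers lie between 0.369 and 0.515 and METTL3-Flox livers between 0.490 and 1.09, so the ranges meet.

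Fasn (ENSMUSG00000025153, chromosome 11, 120805846 to 120824547, minus strand) encodes fatty acid synthase, which condenses malonyl-CoA into palmitate. It was at 9.78, 8.22, 16.9 and 23.8 FPKM in METTL3-HKD livers and at 16.8, 28.2, 25.4 and 19.8 FPKM in METTL3-Flox livers. As for Srebf1, METTL3-HKD livers 1 and 2 were below every METTL3-Flox liver and livers 3 and 4 were within the METTL3-Flox range. The means were 14.7 ± 7.17 and 22.5 ± 5.16 FPKM (SD, n = 4 each), and the log2 fold change of −0.72 (SE 0.325, 95% interval −1.45 to 0.02) did not pass (adjusted p = 0.166, exact permutation p = 0.143).

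Me1 (ENSMUSG00000032418, chromosome 9, 86581371 to 86695953, minus strand) encodes cytosolic malic enzyme, a source of the NADPH that fatty acid synthase uses. It was at 24.1, 27.2, 26.8 and 44.0 FPKM in METTL3-HKD livers and at 23.8, 64.3, 23.1 and 23.4 FPKM in METTL3-Flox livers. METTL3-HKD liver 4 and METTL3-Flox liver 2 stood above the other livers of their groups, which lay between 23.1 and 27.2 FPKM. The means were 30.5 ± 9.11 and 33.7 ± 20.4 FPKM (SD, n = 4 each) and the log2 fold change was −0.03 (SE 0.342, 95% interval −0.80 to 0.75, adjusted p = 0.971, exact permutation p = 1.0). It was 0.34 without METTL3-Flox liver 2, with an adjusted p of 0.300.

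Elovl6 (ENSMUSG00000041220, chromosome 3, 129532355 to 129638495, plus strand) encodes the elongase that extends palmitate to stearate. Its values were 6.89, 5.07, 7.62 and 11.7 FPKM in METTL3-HKD livers and 5.26, 11.8, 8.94 and 6.60 FPKM in METTL3-Flox livers, so the groups spanned nearly the same range. The means were 7.82 ± 2.81 and 8.14 ± 2.86 FPKM (SD, n = 4 each), with a log2 fold change of −0.06 (SE 0.295, 95% interval −0.73 to 0.61, adjusted p = 0.920, exact permutation p = 0.914).

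Scd1 (ENSMUSG00000037071, chromosome 19, 44394451 to 44407709, minus strand) encodes stearoyl-CoA desaturase, which turns stearate into oleate. It varied more between livers of the same group than any other member, at 76.8, 76.9, 494 and 1006 FPKM in METTL3-HKD livers and at 134, 1826, 199 and 178 FPKM in METTL3-Flox livers. The highest METTL3-HKD liver was 13.1 times the lowest, and the highest METTL3-Flox liver was 13.6 times the lowest. The means of 413 ± 441 and 584 ± 828 FPKM (SD, n = 4 each) gave a log2 fold change of −0.39 with a wide error (SE 1.05, 95% interval −2.77 to 1.99, adjusted p = 0.833, exact permutation p = 0.743). Without METTL3-Flox liver 2 it was 0.47 (adjusted p = 0.772). Scd1 has closely related neighbours among which the counting could divide reads. Scd2 averaged 1.28 and 1.35 FPKM in METTL3-HKD and METTL3-Flox livers, and Scd3 and Scd4 averaged at most 0.035 FPKM in either group.

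**Figure D3:**
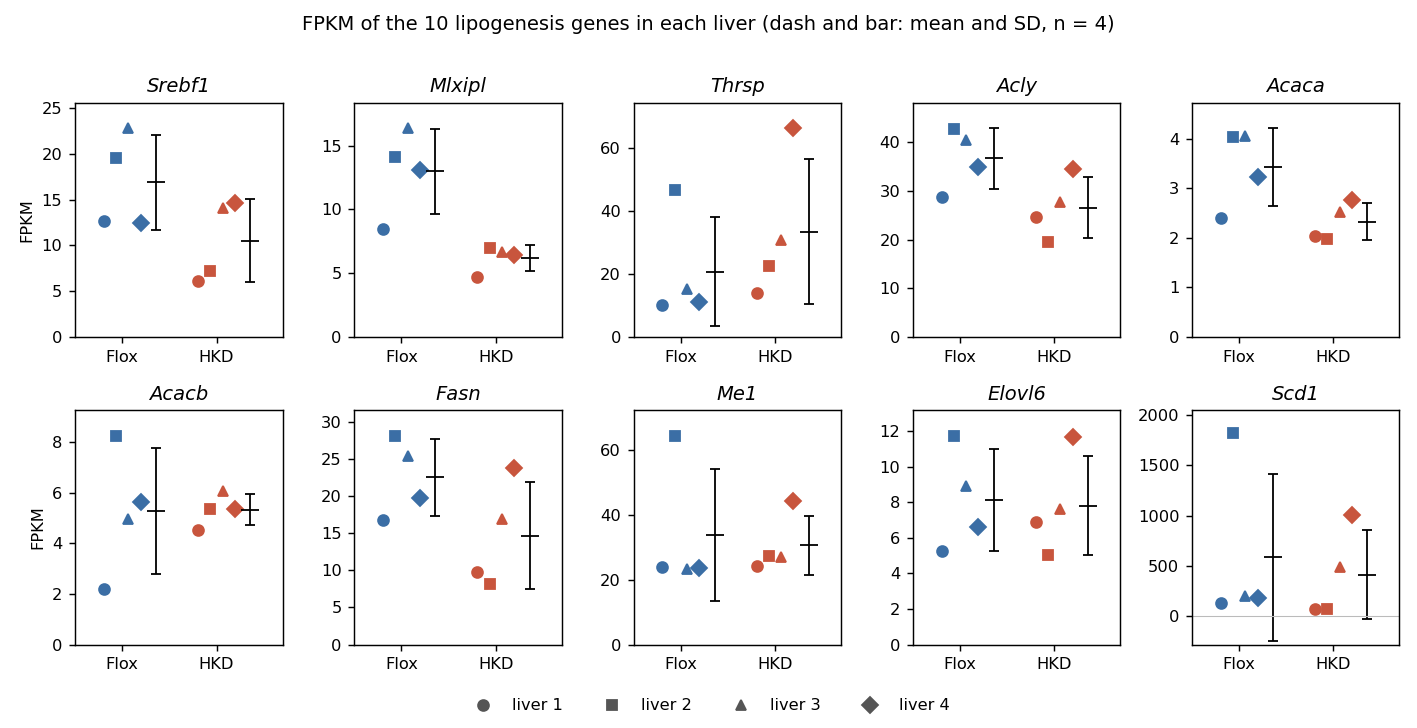
FPKM of each gene on a linear axis in the 4 METTL3-Flox and 4 METTL3-HKD livers, with a symbol per liver number and the mean and SD as dash and bar; the SD bars of Scd1 reach below 0. The groups of Mlxipl are apart, at 4.69 to 6.96 FPKM against 8.42 to 16.4 FPKM, and those of the other genes overlap.

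Compared per length, Scd1 was the most abundant member, and its lowest METTL3-Flox liver, at 134 FPKM, exceeded every other member in every METTL3-Flox liver. By mean level in METTL3-Flox livers, Acly (36.7 FPKM), Me1 (33.7), Fasn (22.5), Thrsp (20.7), Srebf1 (16.9), Mlxipl (13.0), Elovl6 (8.14), Acacb (5.28) and Acaca (3.43) followed. The ranges of neighbours in that order overlapped. Within a liver, Mlxipl was above Elovl6 and Elovl6 above Acacb in each of the 4 METTL3-Flox livers, while the other neighbours after Scd1 changed places in at least 1 liver.

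On the deposited FPKM, the livers of a group were ordered much alike across the pathway. In METTL3-HKD, liver 4 had the highest value in 8 of the 10 genes, and the lowest value was in liver 1 for 6 genes and in liver 2 for 4. Livers 3 and 4 were both above livers 1 and 2 in 7 genes, with Mlxipl, Acacb and Me1 as the exceptions. The library size behind these FPKM was 1.17, 1.16, 1.02 and 1.01 times the reads on genes in METTL3-HKD livers 1 to 4. Scaling to reads on genes would raise livers 1 and 2 against livers 3 and 4. The order was not recounted with it, and the share of all genes in this order was not counted. In METTL3-Flox, liver 2 was highest in 7 genes and liver 3 in the other 3, and liver 1 was lowest in 8. The hepatocyte marker sum of METTL3-HKD was likewise lower in livers 1 and 2, at 22831 and 24794 FPKM, than in livers 3 and 4, at 31656 and 33517 FPKM, and liver 1 had the highest neutrophil sum, at 1631 FPKM. In METTL3-Flox the hepatocyte sum was highest in liver 1, at 33770 FPKM, where 8 members were lowest. There the library size behind the FPKM was 0.840 times the reads on genes, against 0.936, 0.958 and 1.01 times in livers 2 to 4. Scaling to reads on genes would lower METTL3-Flox liver 1 against the others, so the order of the sums depends on the scaling. The sums were not recounted with it. The part of hepatocyte and neutrophil RNA in these orders was not tested.

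**Figure D4:**
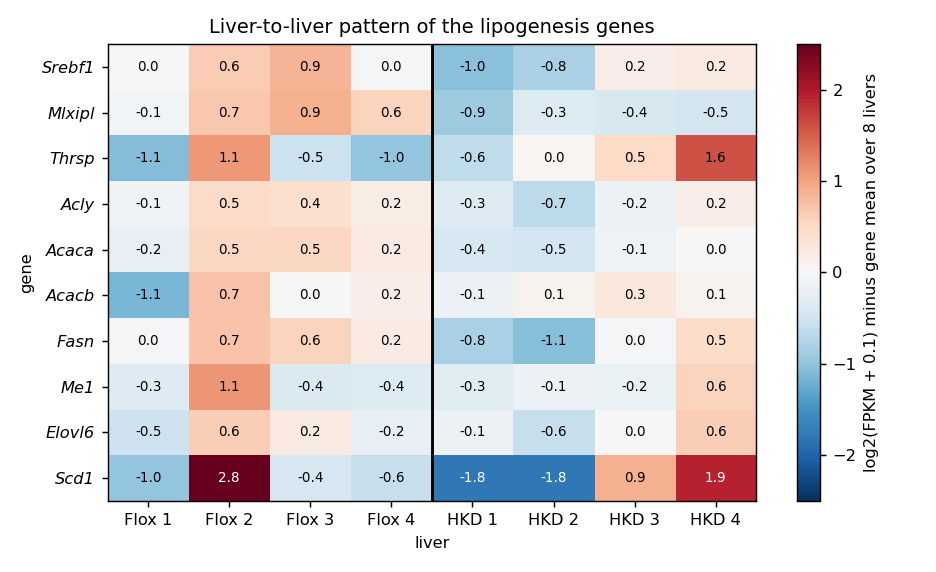
Log2(FPKM + 0.1) of each gene minus its mean over the 8 livers, with METTL3-Flox livers left and METTL3-HKD livers right of the line and a colour scale in log2 units. METTL3-Flox liver 2 is above the mean in every gene, METTL3-HKD liver 1 is below it in every gene, and Mlxipl is below it in all 4 METTL3-HKD livers.

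Among the genes whose liver pattern was nearest to that of Fasn, by the root mean square difference of centred log2(FPKM + 0.1) over the 8 livers, were Cyp4f14 (0.172), Magee1 (0.184), Stard4 (0.193) and Gm18337 (0.199). Stard4, which encodes a cholesterol carrier of the cytosol, was at 9.84, 6.15, 15.0 and 17.8 FPKM in METTL3-HKD livers and 14.8, 30.7, 19.4 and 19.1 FPKM in METTL3-Flox livers. METTL3-HKD livers 1 and 2 were lowest, an order that follows from choosing the gene by its likeness to Fasn. Among all genes tested, Srebf1 ranked 10 by this distance, Acly 46, Acaca 130, Elovl6 553 and Mlxipl 1656, whereas Me1 ranked 4323, Acacb 8014, Thrsp 12976 and Scd1 14840. The distances span both groups and describe likeness over these livers.

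Around the 10 members, 161 genes in 8 lists of the surrounding pathways were read from the same fit. Of the 159 tested, 11 were lower and 15 were higher in METTL3-HKD at an adjusted p under 0.05. These counts are near the shares over all genes tested, 6.63% lower and 9.05% higher. Of the 26 calls, 8 held under all 16 alternatives, among them Pgd, Gpat3, Lpin1, Plin2, Fitm2, Abhd5 and Pdk4. The other 18 were lost in at least 1 of the 8 omissions of a single liver, and with scaling to reads on genes the counts were 3 lower and 19 higher. The second adjusted p given with a call below is the highest over the omissions. Other alternatives could be higher, as for Usf1 at up to 0.420.

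Partners and regulators of SREBP-1c and ChREBP had 2 of 27 lower and 1 higher (median log2 fold change −0.17). Insig2, which holds SREBP precursors in the endoplasmic reticulum, was at 102, 87.5, 87.9 and 66.3 FPKM in METTL3-HKD livers and 60.8, 33.1, 48.3 and 44.1 FPKM in METTL3-Flox livers. Every METTL3-HKD liver was above every METTL3-Flox liver, and Insig2 rose by 0.90 on the log2 scale (SE 0.195, adjusted p = 0.0188, and 0.0525 without METTL3-HKD liver 1). Rxra, the common partner of nuclear receptors such as LXR, fell by 0.45 (adjusted p = 0.0263, and 0.0679 without METTL3-Flox liver 3). Usf1, an E-box factor of the Fasn promoter, fell by 0.38 (adjusted p = 0.0483, and 0.122 without METTL3-Flox liver 3). The call held in 9 of the 16 alternatives for Rxra and in 5 for Usf1. With scaling to reads on genes this list had 0 lower and 2 higher.

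Enzymes that supply carbon and NADPH had 1 of 22 lower and 1 higher (median −0.26). Pgd, the 6-phosphogluconate dehydrogenase of the pentose phosphate pathway, rose from 6.77 ± 0.888 to 14.0 ± 2.94 FPKM (SD, n = 4 each, log2 fold change 1.02, adjusted p = 0.00761). Mdh1, the cytosolic malate dehydrogenase, fell by 0.45 (adjusted p = 0.0494, and 0.117 without METTL3-HKD liver 2).

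Other elongases, desaturases and chain-elongation enzymes had 1 of 21 tested lower and 2 higher (median 0.04). Tecr, the reductase that completes each elongation cycle, fell by 0.63 (adjusted p = 0.0362, and 0.0895 without METTL3-HKD liver 2). Acsl5, an acyl-CoA synthetase, rose by 0.70 (adjusted p = 0.0248, and 0.0646 without METTL3-Flox liver 3), and Elovl7, at 0.997 ± 0.548 against 0.236 ± 0.179 FPKM (SD, n = 4 each), rose by 1.75 (adjusted p = 0.0315, and 0.0790 without METTL3-Flox liver 3).

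Glycerolipid synthesis, which uses the fatty acids made by the pathway, had 4 of 17 lower and 3 higher (median 0.02). Lpin1, a phosphatidate phosphatase, was at 1.53, 1.25, 3.14 and 4.13 FPKM in METTL3-HKD livers and 6.07, 8.50, 6.51 and 8.56 FPKM in METTL3-Flox livers, with no overlap, and fell by 1.66 (SE 0.345, adjusted p = 0.0164). Dgat2, which completes triglyceride in hepatocytes, fell from 128 ± 9.75 to 87.3 ± 12.3 FPKM (SD, n = 4 each, log2 fold change −0.56, adjusted p = 0.0187, and 0.0584 without METTL3-Flox liver 3). Among the acyltransferases of earlier steps, Gpat3 rose by 1.86 (adjusted p = 0.00595) and Agpat4 by 1.42 (adjusted p = 0.0187, and 0.0535 without METTL3-Flox liver 3). Gpat2, of the same step as Gpat3, fell by 0.80 (adjusted p = 0.0347, and 0.0913 without METTL3-Flox liver 2) from 0.498 ± 0.0942 to 0.243 ± 0.0462 FPKM (SD, n = 4 each). The other calls were Gpd1, which makes glycerol 3-phosphate and fell by 0.53 (adjusted p = 0.0366, and 0.0895 without METTL3-HKD liver 1), and Agpat5, which rose by 0.51 (adjusted p = 0.0223, and 0.0602 without METTL3-HKD liver 2).

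Lipid droplet proteins and lipases had 0 of 19 lower and 3 higher (median 0.14). Plin2, the coat protein of hepatocyte lipid droplets, was at 622, 489, 306 and 287 FPKM in METTL3-HKD livers and 124, 106, 108 and 148 FPKM in METTL3-Flox livers. The groups were far apart, with METTL3-HKD livers 1 and 2 highest, and Plin2 rose by 1.75 (SE 0.251, adjusted p = 0.00523). Fitm2, a protein of droplet formation, rose by 0.69 (adjusted p = 0.0109), and Abhd5, the coactivator of adipose triglyceride lipase, by 0.76 (adjusted p = 0.0131).

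Cholesterol synthesis and uptake genes controlled by SREBP-2 had 3 of 16 lower and 0 higher. The log2 fold change was negative in 16 of 16, also with scaling to reads on genes, and its median was −0.84. Mvk, mevalonate kinase, was at 6.06, 3.42, 7.62 and 11.4 FPKM in METTL3-HKD livers and 19.0, 20.3, 15.4 and 12.5 FPKM in METTL3-Flox livers, with no overlap, and fell by 1.33 (SE 0.325, adjusted p = 0.0285, and 0.0732 without METTL3-Flox liver 2), and Fdft1, squalene synthase, by 1.16 (adjusted p = 0.0488, and 0.112 without METTL3-Flox liver 2). In both genes METTL3-HKD liver 2 was lowest and liver 4 highest within its group, as for Fasn.

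Insulin and fasting response genes had 0 of 19 lower and 4 higher (median 0.09). Pdk4, the kinase that closes pyruvate dehydrogenase in fasting, was at 32.0, 21.0, 8.74 and 3.43 FPKM in METTL3-HKD livers and 1.06, 1.52, 1.39 and 1.19 FPKM in METTL3-Flox livers, and rose by 3.13 (SE 0.588, adjusted p = 0.0121). METTL3-HKD livers 1 and 2 were highest for Pdk4 and lowest for Fasn and Srebf1. Igfbp1, a liver gene that insulin represses, rose by 2.05 (adjusted p = 0.0265, and 0.0664 without METTL3-Flox liver 2), Trib1 by 1.16 (adjusted p = 0.0266, and 0.0737 without METTL3-Flox liver 3) and Angptl4, an inhibitor of lipoprotein lipase, by 1.09 (adjusted p = 0.0343, and 0.0855 without METTL3-Flox liver 3).

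Clock genes were read because lipogenic genes cycle with feeding, and they had 0 of 18 lower and 1 higher (median −0.23). Cry1, a repressor of the clock, rose by 1.24 (adjusted p = 0.0277, and 0.0740 without METTL3-HKD liver 1). Dbp, a clock output named here after its values were seen, was at 0.598, 1.10, 6.60 and 5.57 FPKM in METTL3-HKD livers and 0.517, 31.4, 4.66 and 15.9 FPKM in METTL3-Flox livers. Dbp was lowest in METTL3-HKD livers 1 and 2 and METTL3-Flox liver 1 and highest in METTL3-Flox liver 2, as Fasn and Scd1 were, and its group difference did not pass (adjusted p = 0.473). The part of time of day or feeding in the members' values was not tested.

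**Figure D5:**
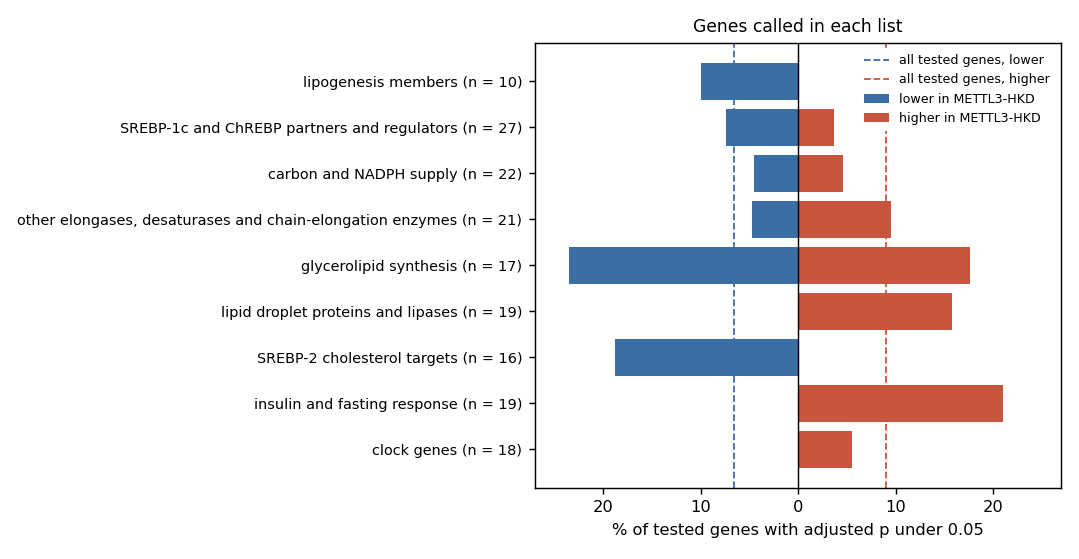
Share of the tested genes of each list with an adjusted p under 0.05, to the left for genes lower and to the right for genes higher in METTL3-HKD, in percent, with dashed lines at the shares over all 16645 genes. The lipogenesis genes lie at 10% lower and 0% higher beside 6.63% and 9.05% of all genes.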

How the data were processed

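Livers of 4 METTL3-HKD and 4 METTL3-Flox mice, each from 1 library of mRNA, were grouped by the sample labels. The authors deposited FPKM and gene lengths for 54532 genes. The submitters' processing notes name GRCm38 and mm10, and the aligner, the counting and the strand setting are not given in the sources used here. FPKM times gene length times an effective library size gave whole reads (tolerance 0.05) for 100% of non-zero values. The effective size was 1.01 to 1.17 times the reads on genes in METTL3-HKD and 0.840 to 1.01 times in METTL3-Flox, so the values had been scaled between libraries. No libraries of the same group were duplicates, and pairs across the groups were not checked.

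The 16645 genes averaging 0.1 FPKM or more were compared on log2(FPKM + 0.1), which understates changes of low genes, with limma 3.58.1 (trend) in R 4.3.3, two-sided, with p-values adjusted by Benjamini-Hochberg over these genes. Every adjusted p is from this test unless another setting is named. Single values were also compared by exact permutation of mean FPKM over 70 arrangements with numpy 2.4.6 in Python 3.11.15. That routine was checked against scipy 1.17.1 on random values. The smallest p is then 0.0286. The p-values measure the spread between these livers. The scripts were tested on simulated data.

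The members, lists and tests were chosen with earlier results of these data known. Named genes are the 10 members, the called genes of each list with the smallest adjusted p (up to 2 per direction, or every one where 4 or fewer were called), the 5 genes nearest to Fasn, Mettl3 and the highest gene of each marker list. Hnf4a, Elane, Mpo, Lep, Slc7a10, the Scd relatives, Gpat2, Gpd1, Agpat5 and Dbp were named after their values were seen. Promoters are from RefSeq, GRCm38.p6. Table coordinates and lengths equal those of GENCODE M21 for all members but Scd1.

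Alternatives were a pseudocount or a minimum of 1 FPKM, no minimum, scaling to reads on genes, no trend, array quality weights, voom on rebuilt reads, a replicate block and the omission of each liver. The authors' own comparisons were not used, and some single genes that the rule would name are not reported here.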

Additional observations from a re-analysis of the deposited data

Results flagged for a closer look

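In 7 of the 94 groups of 4 livers examined, the gap between the most extreme liver and its nearest neighbour took up more of the whole range than Dixon's 95% limit for 4 values allows. Chance flags about 1 in 20 groups of independent, normally distributed values. The gaps were taken on FPKM and not on the log2 scale, and the same livers recur across genes. The counts of flags are therefore not compared with that rate. Among the 20 groups of the members, 4 were flagged. METTL3-Flox liver 2 was far above the others in Scd1 (1826 FPKM, gap of 0.962 of the range), Me1 (64.3 FPKM, gap of 0.983) and Thrsp (46.5 FPKM, gap of 0.868). METTL3-HKD liver 4 was far above the others in Me1 (44.0 FPKM, gap of 0.845). Outside the members, METTL3-Flox liver 4 was high in Angptl4 (37.8 FPKM, gap of 0.859) and low in Gpat3 (1.24 FPKM, gap of 0.889), and METTL3-Flox liver 1 was low in Dgat2 (113 FPKM, gap of 0.855).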

How the results depend on the processing

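Mlxipl was the only member called under the 16 alternatives, except that Acaca was also called without METTL3-Flox liver 1, so the count of members lower was 1 to 2 over the omissions. The log2 fold change of a member changed sign in 14 cases, all in Acacb, Elovl6, Me1 and Scd1, which did not pass. With scaling to reads on genes, Elovl6 was 0.16 and Me1 0.19 (log2 fold change). With array quality weights, Me1 was 0.11. Over the omissions, Acacb ran from −0.21 to 0.41, Scd1 from −1.09 to 0.47, Elovl6 from −0.27 to 0.14 and Me1 from −0.22 to 0.34. Of all genes, 682 were lower with no minimum, 374 lower and 2310 higher with scaling to reads on genes, and 355 to 1148 lower and 747 to 1659 higher over the omissions. Of the list genes, 5 were lower with no minimum, 3 with scaling, 6 with no trend, and 2 to 16 lower and 8 to 19 higher over the omissions. The log2 ratio of Acaca to Acacb differed by −0.87 to −0.49 over the omissions and passed only without METTL3-Flox liver 2. The omissions had fewer livers, and the setting with no minimum tested more genes. The cause of these changes was not tested.

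Samples of the 2 groups share only replicate numbers. Same-number deviations correlated at −0.084 to 0.071, and 1 of 4 METTL3-HKD livers correlated best with its own number. The replicate block gave 645 genes lower and 971 higher, 6 of the list genes lower, Mlxipl an adjusted p of 0.0111 and the carboxylase ratio an exact sign-flip p of 0.125, the smallest that 4 pairs allow. Depth did not limit the members, each with at least 303 reads in every liver.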
